A study of Rattus norvegicus with 9 samples.

Results

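The 3 arrays of rESC-RPC1 and the 3 arrays of P-RPC, 6 of the 9 arrays in the series, were compared with each other. They were chosen by the sample titles. P-RPC were SD rat neural retina cells, taken on postnatal day 1 and dissociated with papain, neither cultured nor, by the methods, sorted. rESC-RPC1 came from 1 rESC line, DA8-16, of DA rats. After removal of the feeder cells, these rESCs were aggregated in serum-free suspension with Matrigel and the Wnt inhibitor IWR-1e, and FBS was given later at the aggregate stage. The aggregates adhered to coated dishes from day 10, were kept in N2 medium with FBS from day 14 and were harvested on day 16. The remaining 3 arrays held rESC-RPC2, from the same line, which stayed in suspension until day 14, did not go into N2 medium and were also harvested on day 16. The design names 3 independent biological repeats per group. Strain, tissue or culture, serum, medium and cell type all changed together between rESC-RPC1 and P-RPC, so their parts in any difference cannot be told apart.

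The neonatal rat retina holds dividing progenitor cells together with neurons that have already been born, among them cones, amacrine cells and ganglion cells, and its rods and bipolar cells are still forming. Its progenitors are specified by the eye field transcription factors, which include Rax, Pax6, Six6 and Lhx2, and the photoreceptors that they give rise to depend on Otx2, Crx, Neurod1 and Prdm1. Neural cells from ESCs can also take on other forebrain fates, and under adherent culture with serum they can lay down extracellular matrix and turn on glial genes.

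Signals on the linear MAS 5.0 scale were compared as log2, with values under 1 set to 1 and each gene represented by the probe set of highest mean signal. Of 14217 genes on the array, 9956 had at least 3 of 9 arrays at or above the detection threshold, a signal of 122.6, and were tested with limma. A gene was called at an adjusted p under 0.05 with a fold change of at least 2. In this way 1192 genes (12.0% of those tested) were called higher in rESC-RPC1 and 952 (9.56%) lower, together 21.5%. The median log2 fold change of all tested genes was -0.01. The arrays of the groups did not overlap for 66.4% of the tested genes, and for 1187 of the higher and 950 of the lower genes. All 3 P-RPC arrays lay under the threshold for 388 of the higher genes, and all 3 rESC-RPC1 arrays for 293 of the lower genes. A gene detected in 1 group alone passed the filter through that group, so a count of called members is no support for a list where most of its tested members did so. For 9 called genes all 6 arrays did so, and no fold is given for them. Where a whole group lay under the threshold, "at least" marks a bound taken against that threshold. With undetected values raised to the threshold, 109 genes were at least 8-fold higher and 74 at least 8-fold lower. Each log2 fold change is given ± its standard error from the limma fit, with 3 arrays per group, and array values are given in the order of replicates 1, 2 and 3. Where a signal is said to go from one set of 3 values to another, the P-RPC arrays come first and the rESC-RPC1 arrays second.

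The choice of 2-fold decided many calls, since 3845 further genes had an adjusted p under 0.05 with a smaller change. Fez1, a protein of axon outgrowth, lay just inside the limit with signals of 2312, 2188 and 2300.2 in P-RPC and 4791, 5934 and 3275 in rESC-RPC1 (log2 fold change 1.00). Trim25, a ubiquitin ligase, lay just outside it at 0.9996. The P-RPC arrays resembled each other more closely (r = 0.986 to 0.988 over all tested genes, on log2) than the rESC-RPC1 arrays did (0.952 to 0.976), and arrays of different groups had r of 0.738 to 0.772. These correlations are over genes of the same arrays and describe the arrays only. The median SD of a gene over the arrays of a group was 0.104 on log2 in P-RPC and 0.179 in rESC-RPC1.

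**Figure D1:**
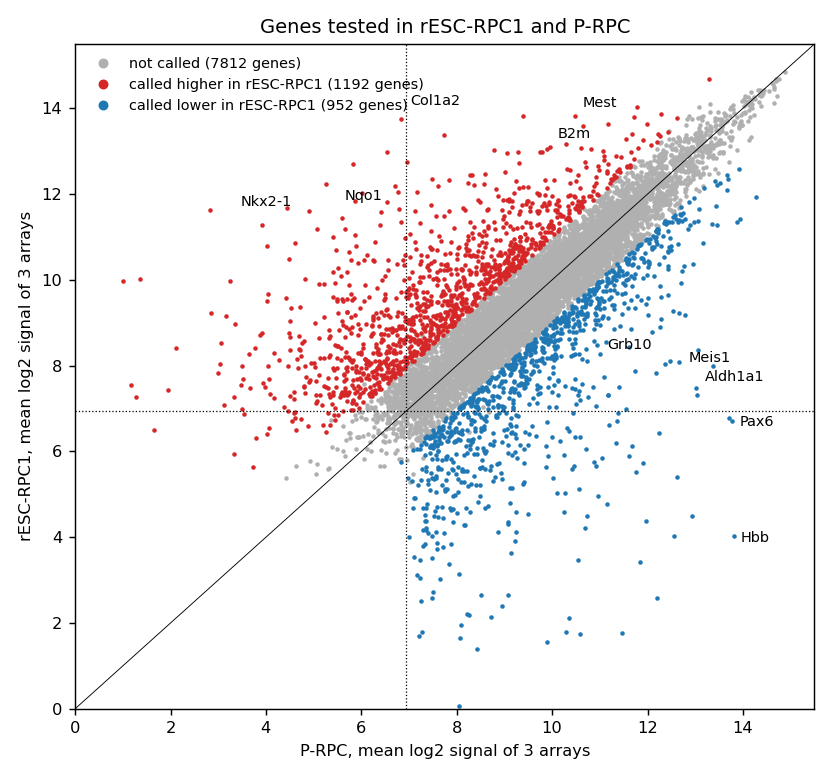
Mean log2 signal of the 9956 tested genes in P-RPC (x axis) and rESC-RPC1 (y axis), 3 arrays per group, with the 1192 genes called higher and the 952 called lower coloured. Dotted lines mark the detection threshold (log2 6.94) and the solid line equal signal; Pax6 and Meis1 lie far below the solid line, and Col1a2 and Nkx2-1 far above it.

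**Figure D2:**
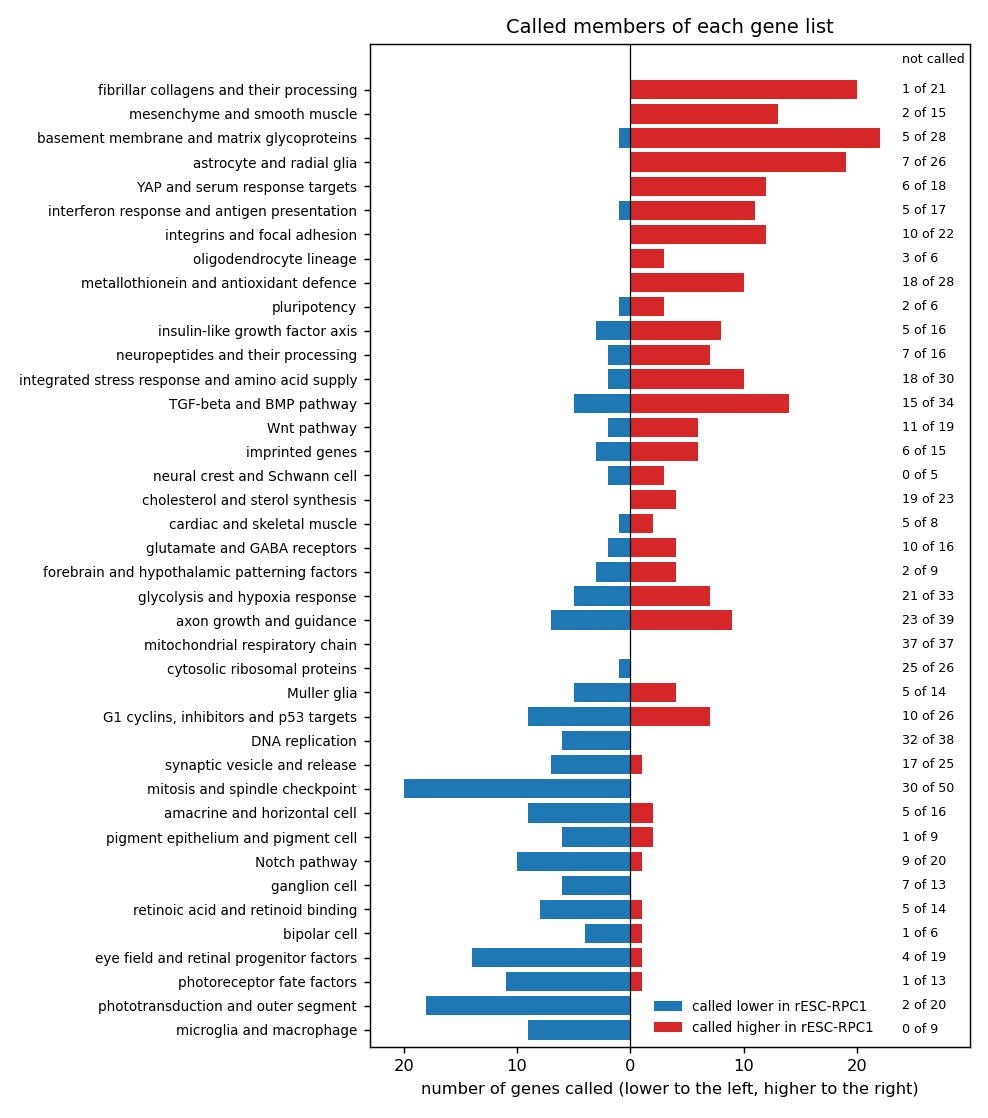
Bars count the tested members of each gene list (lists with at least 5) that were called higher (to the right) or lower (to the left) in rESC-RPC1, with P-RPC as the base, and the numbers at the right give the members not called. Microglia and phototransduction genes extend to the left, with 9 and 18 members, and fibrillar collagens, with 20, to the right. All 9 microglia genes and 14 tested phototransduction genes passed the filter through P-RPC alone, so these bars to the left follow wholly or in part from the filter.

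Most eye field and retinal progenitor genes were lower in rESC-RPC1. Of 25 listed genes 21 were on the array and 19 were tested, and 14 of these fell, 1 rose and 4 were not called, with a median log2 fold change of -2.68. Of the 21 on the array, 2 were under the threshold on every P-RPC array and 4 on every rESC-RPC1 array. Pax6, the paired-box factor that specifies the eye, had signals of 14206, 13485 and 14227 in P-RPC and of 67.4, 204 and 84.2 in rESC-RPC1. Only replicate 2 of rESC-RPC1 was above the threshold, and no array of the groups overlapped (log2 fold change -7.06 ± 0.35, adjusted p = 1.3e-07). These signals rest on the probe set used, since no other probe set of Pax6 passed the filter. By RT-qPCR the paper found Pax6 in rESC-derived cells, at lower levels than in P-RPC. It also reports Pax6 protein by staining in both kinds of rESC-RPCs. Rax, the homeobox gene of the eye field, went in signal from 4557, 4615 and 4696 to 231, 382 and 135. It was detected on all 3 rESC-RPC1 arrays, all of them far under P-RPC, and replicate 3 was the lowest (log2 fold change -4.34 ± 0.40, adjusted p = 7.2e-06). Six6 fell by 3.36 and Meis1 fell by 4.59 on the log2 scale, and Meis2, its relative, fell by 2.68. In these unsorted samples, fewer cells of a type and less RNA per cell cannot be told apart.

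Some of the list were changed less or not called. Lhx2, required for the optic vesicle, had signals of 8508, 8212 and 9329 in P-RPC and of 5658, 7043 and 4556 in rESC-RPC1. The groups did not overlap but the change was smaller than 2-fold (log2 fold change -0.61 ± 0.14, adjusted p = 0.0035), so Lhx2 was not called. Otx2, a factor of photoreceptors, pigment epithelium and forebrain, fell by 1.22 on log2, with signals from 12650.2, 13284 and 12973 to 6193, 7644 and 3663. Without rESC-RPC1 replicate 3 the log2 fold change of Otx2 was -0.91 and it was not called. Sox2, a factor of neural progenitors in general, had a log2 fold change of 0.91 ± 0.10 and was not called either. Rlbp1, a retinoid carrier of late progenitors and Muller glia, fell in signal from 3366, 3513 and 3499 to 45.6, 218 and 9.73, and 1 of the 3 rESC-RPC1 arrays detected it. Neurog2, a proneural factor, was at least 9.01-fold lower. The Wnt antagonists Sfrp2 and Dkk3, which retinal progenitors secrete, fell (log2 fold changes -2.40 and -2.51). Id3, an inhibitor of differentiation, was the member that rose (log2 fold change 1.93).

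Several factors of other brain and body regions were high in rESC-RPC1. Nkx2-1, the homeobox factor of the ventral forebrain and hypothalamus, had signals of 27.6, 38.6 and 25.6 in P-RPC, all under the threshold, and of 3315, 3584 and 2516 in rESC-RPC1. All 3 rESC-RPC1 arrays were well above it, a rise of at least 25.3-fold, adjusted p = 3.9e-09. Dlx1, an interneuron factor, had signals of 127, 128 and 109 in P-RPC and of 2310.1, 2845 and 1260.1 in rESC-RPC1 (log2 fold change 4.07 ± 0.24), and Dlx5 was at least 2.68-fold higher. Nkx2-2, a ventral patterning factor that also marks oligodendrocyte precursors, was at least 2.79-fold higher. Of the 30 forebrain and hypothalamic factors listed, 18 were on the array and 9 were tested, and 4 of them rose, 3 fell and 2 were not called. Among the 9, Nkx2-1, Nkx2-2 and Dlx5 were under the threshold on every P-RPC array, so the count of rises follows in part from the filter. Of the 3 that fell, Rax and Six6 also belong to the eye field, and Eomes (log2 fold change -2.36) marks cortical progenitors and a set of ganglion cells. Factors of the midbrain, hindbrain and spinal cord were mostly under the threshold, with 1 of 14 tested, Irx3, which was at least 4.66-fold lower. Tbx5 and Tbx3, T-box factors of the dorsal retina as well as of other organs, were at least 2.98-fold and 7.84-fold lower. Mef2c, a factor of muscle, neural and vascular cells, went in signal from 135, 122 and 134 to 2556, 2102 and 1883, with 2 of 3 P-RPC arrays detected. It is also counted among the photoreceptor fate factors below.

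**Figure D3:**
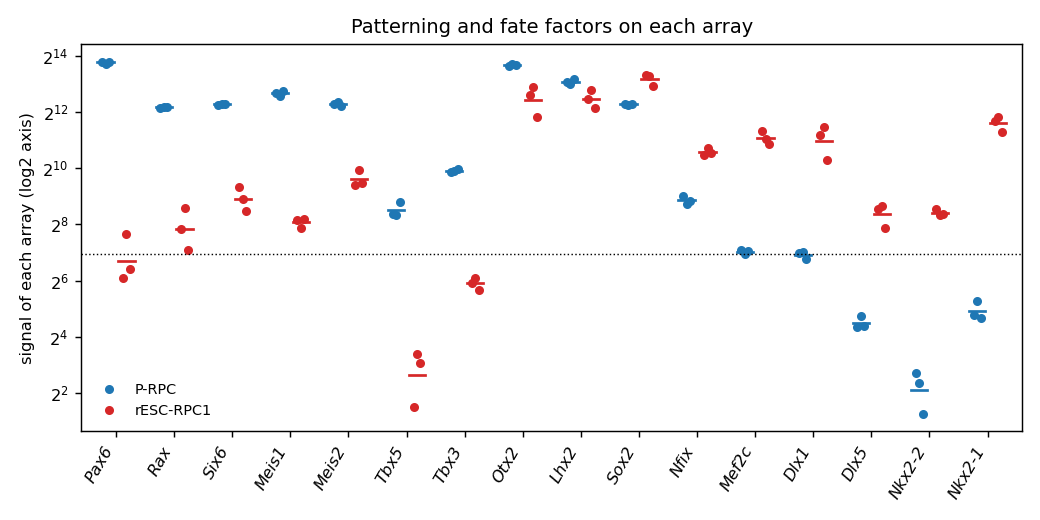
Signal of patterning and fate factors on each array (log2 axis), with a point per array, 3 arrays per group, and a short line at the mean of the log2 signals; the dotted line is the detection threshold. P-RPC and rESC-RPC1 points do not overlap for any of the 16 genes, with Pax6 to Otx2 lower in rESC-RPC1, Lhx2 and Sox2 differing by less than 2-fold, and Nfix to Nkx2-1 higher.

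Most tested photoreceptor genes were lower, both the factors that commit a cell to the photoreceptor fate and the proteins of the outer segment. Of 13 fate factors tested, 11 fell, 1, Mef2c, rose (log2 fold change 4.05) and 1, Mef2d, was not called. Their median log2 fold change was -2.68 (-1.28 with undetected values raised to the threshold). Of 37 genes of phototransduction and the outer segment on the array, 20 were tested and 18 fell, with a median of -4.74 (-3.14 with raised values). Of the tested genes 4 fate factors and 14 outer segment genes were detected on no rESC-RPC1 or rESC-RPC2 array and entered through P-RPC alone. The other 17 stayed under the filter, so they add nothing on either side. Crx, the homeobox factor of postmitotic photoreceptors, had signals of 142, 156 and 136 in P-RPC and of 12.2, 21.3 and 2.57 in rESC-RPC1. No rESC-RPC1 array detected it, and since P-RPC itself was low the bound on its fall is small (at least 1.18-fold lower, adjusted p = 0.0035). Rorb, a nuclear receptor of rods and amacrine cells, was at least 11.5-fold lower and Casz1, a zinc finger factor of retinal progenitors, fell by 3.35 on log2. Thrb, the thyroid hormone receptor of cones, fell by 1.04 on log2, just past the 2-fold limit, and was not called without P-RPC replicate 1 (log2 fold change -0.96), rESC-RPC1 replicate 1 (-0.97) or rESC-RPC1 replicate 2 (-0.93).

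Genes of both cones and rods fell. Opn1sw, the short-wavelength cone opsin, had signals of 1357, 1455 and 1155 in P-RPC and of 23.6, 1.00 and 3.45 in rESC-RPC1, and was at least 10.7-fold lower. Gngt2, the cone transducin gamma subunit, went in signal from 7317, 8428 and 7655 to 9.44, 35.1 and 35.1, at least 63.5-fold lower. Among proteins shared by rods and cones or used by rods, Prph2, Sag, Pdc and Pde6g were at least 13.6-, 12.3-, 13.8- and 13.7-fold lower. None of the 3 rESC-RPC1 arrays detected any of these 6 genes. The members not called were Gnb1, a G protein subunit used throughout the nervous system (log2 fold change 0.21), and Cngb1, a cyclic nucleotide channel subunit (log2 fold change -0.39), whose other probe set differed by -5.60, so that its probe sets disagree.

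To show the sequence upstream of these genes, promoters of RefSeq (assembly GRCr8) were searched from 250 bases before to 50 bases after the start of the gene for GGATTA, the core to which the homeobox protein CRX binds, on both strands. Of the 29 members that fell in either photoreceptor list, 21 had a promoter in the table and 7 held the core (33.3%), namely Crx, Abca4, Gngt1, Opn1sw, Prph2, Aipl1 and Thrb. Of the promoters of all array genes 5.54% held it, and of all 27457 promoters 7.11%. A match is a description of the letters and no evidence of binding. The share was not counted for list members that did not fall, so it does not set apart the genes that fell. This limit also holds for the motif shares given below. The 250 bases before the start are given for Crx, with 2 matches at -170 and -97, and for Opn1sw, with 1 match on the reverse strand at -106, where capitals mark the match.
Crx, chr1:85681853-85682102, minus strand: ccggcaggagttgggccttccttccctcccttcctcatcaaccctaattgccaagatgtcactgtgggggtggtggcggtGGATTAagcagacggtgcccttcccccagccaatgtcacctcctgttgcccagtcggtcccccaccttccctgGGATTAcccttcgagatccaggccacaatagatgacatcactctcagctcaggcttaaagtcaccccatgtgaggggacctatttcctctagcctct
Opn1sw, chr4:58945826-58946075, minus strand: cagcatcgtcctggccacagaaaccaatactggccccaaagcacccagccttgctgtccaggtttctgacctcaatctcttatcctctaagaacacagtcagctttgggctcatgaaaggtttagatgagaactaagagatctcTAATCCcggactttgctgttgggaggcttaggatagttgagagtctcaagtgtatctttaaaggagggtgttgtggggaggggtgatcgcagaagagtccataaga

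Among the other retinal neurons, of 16 tested genes of amacrine and horizontal cells 9 fell, 2 rose and 5 were not called. Of the 16, 4 entered through P-RPC alone, so the count of falls follows in part from the filter. Ptf1a, the factor that commits progenitors to both fates, was at least 8.49-fold lower. Calb2, the calcium-binding protein calretinin, had signals of 1484, 1549 and 1544 in P-RPC and of 57.6, 79.7 and 9.30 in rESC-RPC1, at least 12.4-fold lower, and Prox1, a horizontal cell factor, fell by 1.84 on log2. Gad1, the GABA-synthesising enzyme, rose in signal from 829, 752 and 922 to 2892, 3622 and 2693, and the calcium-binding protein Calb1 rose too (log2 fold change 1.62). The GABA transporter of vesicles, Slc32a1, was not called (log2 fold change -0.23).

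Of 13 ganglion cell genes, 6 fell and 7 were not called, and 2 of the 13 entered through P-RPC alone. Sncg, gamma-synuclein, fell in signal from 8966, 9128 and 7359 to 195, 159 and 129.5 (log2 fold change -5.73 ± 0.15, adjusted p = 3.0e-09). Slc17a6, the vesicular glutamate transporter, fell by 2.74 on log2, Rbpms fell by 3.86, and Pou4f1, a POU-domain factor, was at least 1.98-fold lower. Several members that were not called are used by neurons in general, among which Elavl3, Thy1, Stmn2 and Gap43 had log2 fold changes of -0.34, -0.07, -0.38 and -0.64. Only 6 bipolar cell genes were tested, of which 4 fell, 1 rose and 1 was not called, and 2 of the 6 entered through P-RPC alone. Those that fell include Bhlhe22 (log2 fold change -3.86) and the receptor Grm6 (at least 2.36-fold). The 1 that rose was Prkca, which the paper uses as a bipolar cell marker. Prkca was detected on 2 of 3 rESC-RPC1 arrays and on no P-RPC array, and was at least 1.12-fold higher. Of 14 Muller glia genes, 5 fell, 4 rose and 5 were not called. Those that fell, Rlbp1, Dkk3, Car2, Crym and Rax, are also retinal genes, and those that rose, Vim, Aqp4, Abca8a and Id3, are also found in brain glia. Car2, carbonic anhydrase, went in signal from 9317, 11459 and 11449 to 309, 345 and 152 (log2 fold change -5.40 ± 0.30, adjusted p = 2.6e-07). Glul, glutamine synthetase, and the glutamate transporter Slc1a3 were not called (log2 fold changes -0.19 and -0.46).

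Of 9 tested pigment cell genes, 6 fell, 2 rose and 1 was not called (median log2 fold change -2.35, or -0.91 with raised values). Among the 9, 3 entered through P-RPC alone, so the count of falls follows in part from the filter. Tyr and Tyrp1, enzymes of melanin synthesis, were at least 1.87-fold and 9.96-fold lower, the melanosome protein Pmel fell by 2.73 on log2, and Ttr, a carrier of thyroid hormone and retinol made by pigment epithelium and choroid plexus, was at least 39.4-fold lower. The genes that rose were Dct, a further enzyme of melanin synthesis, and Mitf, the factor of pigment cells. Mitf had signals of 240.3, 237 and 263 in P-RPC and of 704, 681 and 592 in rESC-RPC1, without overlap. Dct had signals of 865, 984 and 1160.0 in P-RPC and of 3389, 4631 and 1034 in rESC-RPC1. Replicate 3 of rESC-RPC1 lay among the P-RPC arrays for Dct (log2 fold change 1.35 ± 0.43, adjusted p = 0.020), and only the other two stood above them. Dct was not called without P-RPC replicate 1 (adjusted p = 0.064) or 2 (0.053), or without rESC-RPC1 replicate 1 (0.079) or 2 (0.057).

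Genes of cells outside the neural retina were also detected in P-RPC. Of 17 microglia and macrophage genes on the array 9 were tested, all of which entered through P-RPC alone and were called lower, so that this count follows from the filter. The summed signal of the 17 was 3262 to 3740 in P-RPC and 442 to 543 in rESC-RPC1. Ctss, a lysosomal protease, was at least 5.97-fold lower and P2ry12, the microglial purine receptor, at least 2.92-fold. Of 8 red blood cell genes only Hbb, beta-globin, was detected in P-RPC, with signals of 14139.7, 13868 and 15033 there and of 12.7, 15.3 and 22.1 in rESC-RPC1. Of 16 endothelial genes 14 were under the threshold on every P-RPC array. The tested one was Kdr, a VEGF receptor that retinal progenitors also use, which fell in signal from 6361, 6357 and 6722 to 593, 981 and 369.7. Lens genes set P-RPC replicate 1 apart, with a sum over 17 genes of 145908 there, 1974 in replicate 2 and 5552 in replicate 3, against 401 to 514 in rESC-RPC1. The 3 lens genes tested, Cryaa, Cryba1 and Crybb3, also entered through P-RPC alone, and Crybb3 was not called by the methods' t-test (adjusted p = 0.068). Cryaa, a crystallin, had signals of 21855, 825 and 2804 in P-RPC and of 22.3, 6.06 and 9.16 in rESC-RPC1. The part of these cells in other differences was not tested.

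Genes of mesenchyme, collagen fibres and basement membrane rose in rESC-RPC1. Of 21 tested genes for fibrillar collagens and the enzymes that process them, 20 rose and none fell (median log2 fold change 2.43), and Plod2, a lysyl hydroxylase, was not called (log2 fold change 0.87). P-RPC detected all but 4 of the 21. Col5a2, a collagen of thin fibrils, had signals of 217, 208 and 217 in P-RPC and of 12057, 7911 and 12529.9 in rESC-RPC1. All arrays of both groups detected it, and the lowest rESC-RPC1 array, replicate 2, was still far above P-RPC (log2 fold change 5.63 ± 0.17, adjusted p = 6.2e-09). Lox, the enzyme that crosslinks collagen, went in signal from 75.2, 97.0 and 111 to 7352, 5259.5 and 13263, a rise of at least 65.3-fold, adjusted p = 6.7e-08. Serpinh1, the collagen chaperone, rose by 3.25 on log2, Sparc, which binds collagen, by 2.94, and the prolyl hydroxylase P4ha3 was at least 18.9-fold higher. Type I collagen was high as well, with Col1a1 going in signal from 216, 220.4 and 253 to 5687, 2326 and 10217.

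The basement membrane and glycoprotein list held 28 tested genes, of which 22 rose, 1 fell and 5 were not called, with a median of 1.92. The laminin chain Lamc1 rose by 3.16 on log2, Lama5 by 2.40 and the type IV collagen Col4a1 by 2.11. Fibronectin, Fn1, went in signal from 1143, 1279 and 1349.7 to 8694, 7262 and 12520.2, and versican, Vcan, from 495, 496 and 540.0 to 3084, 3896 and 2017, without overlap in either. Lama1, a laminin of the embryonic retina and early embryo, was not called (log2 fold change -0.59), and Efemp1, a fibulin, fell by 1.75 on log2. Of the 15 tested mesenchyme and smooth muscle genes, 13 rose and none fell (median 3.23, or 2.18 with raised values), and 6 of the 15 were under the threshold on every P-RPC array. Their summed signal over 26 genes was 5139 to 5660 in P-RPC and 15049, 27444 and 49914 in replicates 2, 1 and 3 of rESC-RPC1. Postn, periostin, and Tpm2, a tropomyosin, were high on all rESC-RPC1 arrays, with signals of 1790.3, 737 and 2762 for Postn and of 1493, 682 and 4526 for Tpm2. The tested members not called were Pdgfra (log2 fold change 0.44) and S100a4 (log2 fold change 0.62), and Des, desmin, stayed under the threshold on all 6 arrays.

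Of 22 genes of integrins and focal adhesion, the receptors for the matrix and the proteins that couple them to actin, 12 rose, none fell and 10 were not called (median 1.12). Itga6, a laminin receptor subunit, had signals of 499.6, 461 and 522 in P-RPC and of 3466, 2134 and 4415 in rESC-RPC1 (log2 fold change 2.69 ± 0.21, adjusted p = 2.5e-06). The common partner Itgb1 rose by 1.75 on log2, vinculin (Vcl) by 3.02 and Actn1 by 2.38, whereas Zyx and Ilk were not called (log2 fold changes 0.03 and 0.50). Cd44, a hyaluronan receptor, had a log2 fold change of 0.41 on the probe set used and of 1.43 on its other probe set.

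Of 18 genes that respond to YAP or to serum through SRF, 12 rose and 6 were not called (median 1.57). Ccn2, a matricellular protein, went in signal from 232, 152 and 162 to 4933, 3287 and 8906, and all 3 rESC-RPC1 arrays were above all P-RPC arrays (log2 fold change 4.87 ± 0.35, adjusted p = 1.4e-06). Fhl2, an actin-linked cofactor, was at least 6.23-fold higher, and the immediate early genes Fos and Egr1 rose by 3.18 and 3.10 on log2. Srf itself and the actin gene Actg1 were not called (log2 fold changes 0.01 and -0.02). Cnn2, a calponin that binds actin, went in signal from 164, 223 and 149 to 2322, 1095 and 4616 (log2 fold change 3.69 ± 0.41). Of the 25 genes called higher in this list or the mesenchyme list, 16 had a RefSeq promoter and 3 (18.8%) held a CArG box, the site of SRF, against 1.35% of the promoters of array genes. They were Cnn2, Fhl2 and Egr1. The list was made of genes that respond to YAP or SRF, and members not called higher were not counted. The share therefore does not set apart the genes that rose. The bases before the start of Cnn2 (GRCr8) show the box in capitals at -71.
Cnn2, chr7:10370313-10370562, minus strand: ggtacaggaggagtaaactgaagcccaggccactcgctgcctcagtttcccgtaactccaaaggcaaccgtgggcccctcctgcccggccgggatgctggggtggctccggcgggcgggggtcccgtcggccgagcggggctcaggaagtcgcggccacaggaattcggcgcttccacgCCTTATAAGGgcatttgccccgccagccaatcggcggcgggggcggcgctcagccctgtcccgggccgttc

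Astrocyte and radial glia genes were also higher in rESC-RPC1, and none of the 26 tested fell. Of these 19 rose and 7 were not called, with a median log2 fold change of 1.83 (1.42 with raised values). Among the 26, 6 were under the threshold on every P-RPC array. Sparcl1, a secreted glial protein, had signals of 282, 328 and 359 in P-RPC and of 5060.4, 9038 and 3718 in rESC-RPC1, with every rESC-RPC1 array above (log2 fold change 4.11 ± 0.27, adjusted p = 7.2e-07). Clu, clusterin, rose by 3.32 on log2, and Fgfr3, an FGF receptor of radial glia and astrocytes, by 4.46, with 1 of 3 P-RPC arrays detected. Mlc1, Hepacam and S100b, membrane and calcium-binding proteins of astrocytes, were at least 5.12-, 3.74- and 2.97-fold higher. The gliogenic factors Nfia and Nfix rose by 1.28 and 1.72 on log2. Fabp7, the radial glial lipid carrier, had signals of 1376, 486 and 3497 in P-RPC and of 6392, 11162 and 3139.5 in rESC-RPC1 (log2 fold change 2.19 ± 0.64, adjusted p = 0.013). It varied widely within P-RPC, and P-RPC replicate 3 lay above the lowest rESC-RPC1 array. The methods' t-test did not call it (adjusted p = 0.14). Gja1, a gap junction protein, and Apoe, a lipid carrier, were not called (log2 fold changes 0.73 and 0.66). Maob, the monoamine oxidase of astrocytes, lies outside the list and rose in signal from 132, 122 and 93.2 to 3038, 4908 and 1208.

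Among other glial lineages, of 6 oligodendrocyte genes tested of 16 on the array, Olig1 was at least 3.43-fold higher, Nkx2-2 and Lhfpl3 rose, Pdgfra was not called, and the myelin genes Mbp and Cnp were not called (log2 fold changes -0.85 and -0.19). Of 5 neural crest and Schwann cell genes, Pmp22 rose in signal from 3597, 3148 and 3405 to 15835, 9667 and 18961, S100b and Ets1 also rose, and Tfap2a and the neurotrophin receptor Ngfr fell. Pmp22, a membrane protein of myelin that many other cells use, gave most of the summed signal of the 8 genes on the array, which was 4088 to 4649 in P-RPC and 10941 to 20261 in rESC-RPC1.

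Most genes of synaptic vesicles and of axon growth, used by neurons of many kinds, were not called. The shares that were called, 32% and 41.0%, were still above the 21.5% of all tested genes. Of 25 synaptic vesicle genes, 17 were not called, 7 fell and 1, Syn2, was called higher with 1 of 3 rESC-RPC1 arrays detected and no P-RPC array. Snap25, of the fusion machinery, went in signal from 2344, 2465 and 2414 to 688, 1011 and 687 (log2 fold change -1.62 ± 0.15, adjusted p = 8.4e-06), and Syp, synaptophysin, fell by 1.29 on log2. Of 39 axon growth and guidance genes, 9 rose, 7 fell and 23 were not called (median 0.06). Tubb3, Dcx and Map1b, proteins of the neuronal cytoskeleton, had log2 fold changes of -0.37, -0.07 and 0.11 and were not called. Guidance signals went both ways. Slit2, a repellent of retinal axons, rose in signal from 456, 479.8 and 472 to 3963, 3796 and 4107 (log2 fold change 3.08 ± 0.08, adjusted p = 3.0e-09), Sema6d rose by 3.40 on log2, and Slit3 and Ntn1, netrin, were at least 5.28-fold and 3.92-fold higher. Robo3, a receptor of the Slit system, was at least 5.58-fold lower, its relative Robo2 fell by 1.20 on log2 and the netrin receptor Unc5c fell by 1.64.

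Neuropeptide genes also split, with 7 of 16 rising, 2 falling and 7 not called. Pmch, the precursor of melanin-concentrating hormone of the hypothalamus, was at least 3.03-fold higher and Npvf, the precursor of hypothalamic RFamide peptides, at least 2.02-fold. Npy, neuropeptide Y, went in signal from 1172, 982 and 1159.8 to 2923, 5661 and 1739, and the secretory granule protein Scg2 rose by 2.44 on log2. Gal, galanin, and Cartpt fell (log2 fold changes -3.89 and -3.38). Of 16 glutamate, GABA and glycine receptor genes, 4 rose, 2 fell and 10 were not called. Gria3, an AMPA receptor subunit, rose by 1.91 on log2, and Glra2, the glycine receptor subunit of immature neurons, was at least 4.58-fold lower.

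Genes of DNA replication and mitosis fell or were not called, and none rose. Of 38 DNA replication genes, 6 fell (15.8%) and 32 were not called (median log2 fold change -0.61), against 9.56% that fell among all tested genes. Of 50 mitosis genes, 20 fell and 30 were not called (median -0.89). An adjusted p under 0.05 at any fold, with lower signal in rESC-RPC1, was found for 32 of the replication and 45 of the mitosis genes, against 30.1% of all tested genes, so most shifts were smaller than 2-fold. Mcm2 and Mcm6, subunits of the replicative helicase, had log2 fold changes of -0.79 and -0.87, and Cdk1, the mitotic kinase, of -0.43. Uhrf1, which keeps DNA methylation through replication, went in signal from 1913, 2206 and 1579 to 418, 338 and 384 (log2 fold change -2.31 ± 0.15, adjusted p = 7.3e-07). Prim1, a primase subunit, fell by 1.78 on log2, Cdc25b, a phosphatase that starts mitosis, fell by 1.95 and Kif20b, a kinesin, fell by 2.05. Of 21 promoters of the 26 genes that fell, 2 (9.52%), those of Mcm7 and Gins3, held an E2F site (TTT followed directly by CCCGC, on either strand), against 1.83% for array genes. Members of the G1 list moved both ways, with 7 higher, 9 lower and 10 not called. E2f1 fell by 2.05 on log2, whereas Ccnd2 and Ccnd3, D cyclins, rose by 1.39 and 1.43, and the CDK inhibitor Cdkn1a by 1.56. Its relatives Cdkn1b and Cdkn1c fell (log2 fold changes -1.10 and -1.36). Cdkn2c was called lower on the probe set used (log2 fold change -1.09), while its other probe set had one of 0.08.

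Of the Notch pathway genes, as many fell as did not. The pathway keeps progenitors from becoming neurons, and of 20 genes tested 10 fell, 1 rose and 9 were not called (median -1.02, or -0.70 with raised values). The ligand Dll1 fell by 1.85 on log2 and Dll4 was at least 4.85-fold lower, while the ligand Jag1, common in non-neural tissue and glia, rose in signal from 338, 228 and 386 to 1065, 778 and 1040.0. Notch1, the receptor, was not called (log2 fold change -0.95). Among targets Hes5 went in signal from 902, 989 and 1053 to 138, 190.0 and 87.9, Nrarp fell by 1.56 on log2, and Hes1 was not called (log2 fold change -0.45). Mfng, a glycosyltransferase of Notch, fell by 3.23 on log2.

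Of 19 Wnt pathway genes, 6 rose, 2 fell and 11 were not called, and those called are ligands, receptors and secreted antagonists. The receptor Fzd1 had signals of 396, 391 and 271 in P-RPC and of 3772, 2962 and 4699 in rESC-RPC1 (log2 fold change 3.43 ± 0.21, adjusted p = 4.2e-07). Fzd8 and the ligand Wnt7a were at least 6.84-fold and 2.50-fold higher. Ctnnb1, beta-catenin, had a log2 fold change of 0.02, and the nuclear partners Lef1 and Tcf7l2 were not called (log2 fold changes 0.62 and 0.38). In the TGF-beta and BMP pathway 14 of 34 genes rose, 5 fell and 15 were not called (median 0.72). Of the 34, 8 were under the threshold on every P-RPC array, so the count of rises follows in part from the filter. Nog, noggin, a BMP antagonist, was under the threshold on every P-RPC array and had signals of 1462, 1200.2 and 2098 in rESC-RPC1, at least 12.6-fold higher. Fstl3, an antagonist of activins, and Tgfb3, a ligand, were at least 11.3-fold and 7.76-fold higher. Bmp4, a ligand that patterns the dorsal retina, fell by 1.22 on log2 although rESC-RPC1 replicate 3 lay among the P-RPC arrays, and Inhbb was at least 4.61-fold lower. Only 3 members fell without P-RPC replicate 3, rESC-RPC1 replicate 1 or rESC-RPC1 replicate 2, and Bmp4 had log2 fold changes of -1.08, -1.05 and -0.81 there with no call. Intracellular members such as Smad1, Smad3 and Bmpr2 were not called (log2 fold changes 0.03, 0.67 and 0.18).

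More of the tested genes of retinoic acid synthesis and binding fell than rose. Retinoic acid is made in the developing retina by aldehyde dehydrogenases, and 8 of 14 tested genes fell, 1 rose and 5 were not called (median -1.55). Aldh1a1, the enzyme of the dorsal retina, had signals of 7586, 7892 and 9443 in P-RPC and of 194, 134 and 222 in rESC-RPC1 (log2 fold change -5.53 ± 0.27, adjusted p = 1.1e-07), and Aldh1a3, that of the ventral retina, fell by 2.15 on log2, which the methods' t-test did not call (adjusted p = 0.0502). The binding protein Crabp1 went in signal from 5370.3, 5513 and 6194 to 299, 222 and 323, and the receptor Rarb fell by 3.21 on log2, with 1 of 3 rESC-RPC1 arrays detected. Cyp26b1, which degrades retinoic acid, was at least 2.77-fold higher, while Cyp26a1 was not called (log2 fold change -0.16).

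Genes of the insulin-like growth factor axis moved in both directions, and so did imprinted genes. Of 16 genes of the axis 8 rose, 3 fell and 5 were not called (median 0.72). Igf2, the imprinted fetal growth factor, went in signal from 369, 485 and 553 to 43.0, 64.5 and 51.0, at least 3.78-fold lower, while H19, the neighbouring imprinted RNA, had signals of 912, 951 and 695 in P-RPC and of 7513, 1659 and 5624 in rESC-RPC1. Replicate 2 of rESC-RPC1 was far under the other two for H19 yet above all P-RPC arrays (log2 fold change 2.29 ± 0.46, adjusted p = 0.0016), and the methods' t-test did not call it (adjusted p = 0.056). The binding proteins Igfbp3 and Igfbp5 rose by 5.50 and 2.70 on log2, the former with 1 of 3 P-RPC arrays detected, and the receptor Igf1r fell by 1.09. Of 15 imprinted genes, 6 rose, 3 fell and 6 were not called (median 0.95). Grb10, an adaptor that restrains growth, fell in signal from 5040.4, 5187 and 5556 to 246, 265 and 284 (log2 fold change -4.31 ± 0.13, adjusted p = 6.2e-09). Mest rose by 3.34 on log2, and Meg3 and Gnas were not called (log2 fold changes 0.42 and 0.58).

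Interferon response and antigen presentation genes were higher in rESC-RPC1, with 11 of 17 tested rising, 1 falling and 5 not called (median 1.72, or 1.01 with raised values). Of the 17, 7 were under the threshold on every P-RPC array. They include Ifitm3, Mx2, Rig1, Tap1 and Psmb9, all called higher, so the count of rises follows in part from the filter. Under the alternative settings at the 2-fold limit, 3 to 14 members of the list were called higher. B2m, the light chain of MHC class I, had signals of 955, 954 and 1082 in P-RPC and of 8994, 8708 and 8445 in rESC-RPC1. The arrays of each group lay close together and far from the other group (log2 fold change 3.13 ± 0.07, adjusted p = 2.3e-09). Ifitm3, a membrane protein that blocks virus entry, went in signal from 95.9, 96.0 and 67.5 to 3379.8, 2444 and 3572, a rise of at least 25.2-fold, adjusted p = 1.6e-08. The peptide transporter Tap1 and the immunoproteasome subunit Psmb9 were at least 2.08-fold and 2.24-fold higher, Mx2, a GTPase, at least 3.55-fold, and the RNA sensor Rig1 (Ddx58) at least 1.71-fold. Of the factors, Irf1 rose by 1.74 on log2 and Irf9, just past the limit, by 1.01, and Stat2 was not called (log2 fold change -0.40). RT1-S3, an MHC class I gene, fell by 1.61 on log2. RT1 genes differ between rat strains, P-RPC and rESC-RPC1 came from different strains, and probes can hybridize to near-identical copies, so this value is uncertain. Another 16 listed genes stayed under the filter.

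Of the 11 interferon genes that rose, 8 had a RefSeq promoter and 5 (62.5%) held the core of the interferon-stimulated response element, GAAA, 2 bases of any kind and GAAA again, on either strand. They were Ifitm2, Ifitm3, B2m, Lgals3bp and Tap1. The core was found in 2.99% of the promoters of array genes and in 3.77% of all promoters. List members that did not rise were not counted, so the share does not set apart the genes that rose. The 250 bases before the start (GRCr8) are given for Ifitm3, with the match at -44, and for B2m, with the match at -150, in capitals.
Ifitm3, chr1:205541759-205542008, minus strand: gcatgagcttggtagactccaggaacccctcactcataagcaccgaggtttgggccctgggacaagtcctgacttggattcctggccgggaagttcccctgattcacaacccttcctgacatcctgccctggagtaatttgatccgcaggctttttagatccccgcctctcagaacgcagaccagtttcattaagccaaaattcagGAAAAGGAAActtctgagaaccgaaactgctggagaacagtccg
B2m, chr3:129549080-129549329, plus strand: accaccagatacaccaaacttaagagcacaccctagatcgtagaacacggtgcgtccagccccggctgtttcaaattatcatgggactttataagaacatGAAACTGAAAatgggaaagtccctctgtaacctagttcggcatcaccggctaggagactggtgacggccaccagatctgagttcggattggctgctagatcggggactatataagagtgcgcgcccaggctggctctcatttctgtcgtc

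**Figure D4:**
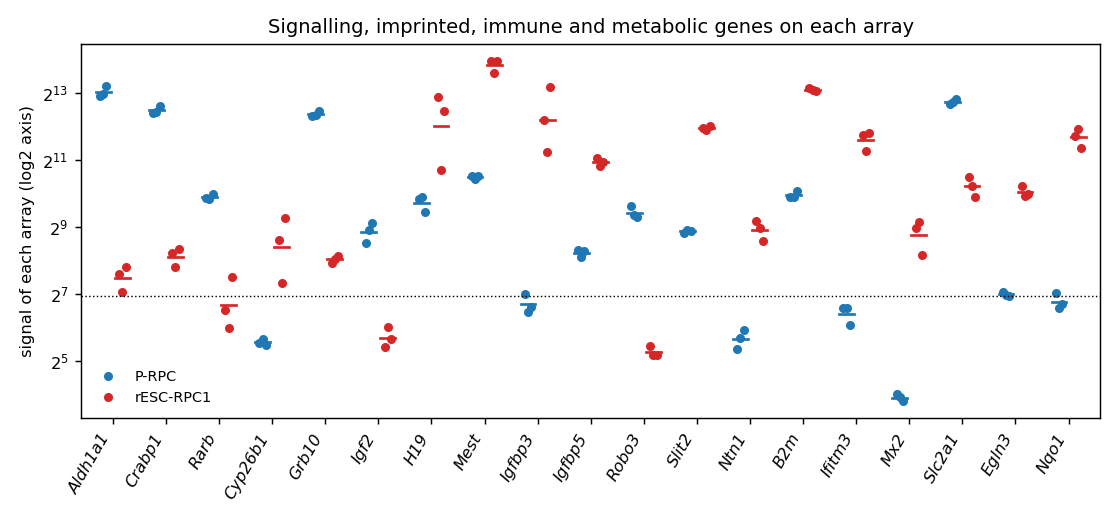
Signal of signalling, imprinted, immune and metabolic genes on each array (log2 axis), with a point per array, 3 arrays per group, and a short line at the mean of the log2 signals; the dotted line is the detection threshold. The B2m points of each group lie close together and apart from the other group, and for H19 rESC-RPC1 replicate 2 (1659) lies between P-RPC and the other 2 rESC-RPC1 arrays.

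Among metabolic genes, of 33 genes of glycolysis and the hypoxia response, 7 rose, 5 fell and 21 were not called (median 0.31). Slc2a1, the glucose transporter, went in signal from 6426, 6755 and 7112 to 1446, 1192 and 957 (log2 fold change -2.52 ± 0.14, adjusted p = 2.5e-07), Ndrg1 fell by 3.31 on log2 and Hif1a fell by 1.05. Egln3, a prolyl hydroxylase that is itself a hypoxia target, rose by 3.05 on log2, while Ldha, Pgk1 and Vegfa were not called (log2 fold changes -0.08, 0.18 and 0.23). Of 28 metallothionein and antioxidant genes 10 rose, none fell and 18 were not called (median 0.83). Nqo1, a quinone reductase, went in signal from 133, 97.1 and 104 to 3363, 3864 and 2626 and the neural metallothionein Mt3 from 156, 149.7 and 81.5 to 5564, 9883 and 6009. For both, at least 1 P-RPC array lay under the threshold and the groups did not overlap.

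Of 30 genes of the integrated stress response and amino acid supply, 10 rose, 2 fell and 18 were not called (median 0.61). Phgdh, the first enzyme of serine synthesis, rose in signal from 215, 281 and 372 to 3018, 3209.9 and 3547 (log2 fold change 3.53 ± 0.17, adjusted p = 9.3e-08), and Asns, asparagine synthetase, rose by 2.17 on log2. The central factor Atf4 was not called (log2 fold change -0.43), and the amino acid transporters Slc7a11 and Slc7a5 fell (log2 fold changes -1.62 and -1.16). In sterol synthesis 4 of 23 genes rose and none fell, which is near the share of all tested genes, and without rESC-RPC1 replicate 3 only 2 were called. The enzymes Sqle and Lss were not called (log2 fold changes -0.11 and 0.32), and Scd, a fatty acid desaturase, rose by 2.39 on log2.

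Genes that every cell uses changed by less than 2-fold with few exceptions. None of 37 respiratory chain genes was called by limma, with a median log2 fold change of 0.22 and a highest one of 0.88 for Ndufb8, a complex I subunit. At any fold, 23 of them had an unadjusted and 22 an adjusted p under 0.05, shares like the 64.2% and 60.2% of all tested genes, and the methods' t-test with its 2-fold limit called 0 of 37. Of 26 cytosolic ribosomal protein genes 25 were not called (median 0.02), and Rpl28 was at least 2.06-fold lower on the probe set used.

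Since rESC-RPC1 were made from rESCs, pluripotency genes were counted as well. Of 12 pluripotency genes on the array 6 were tested, of which Klf4, Esrrb and Klf5 rose, Tbx3 fell and 2 were not called. Each of these 4 is also used by differentiated cells. Klf4, a factor of epithelia and stem cells, went in signal from 102, 93.8 and 76.6 to 1116, 528 and 905. Endoderm genes were under the threshold except 3, of which Ttr and the keratin Krt19 (log2 fold change -2.61) fell and Cdx2 was not called. Of 8 muscle genes tested, Mef2c rose, Tbx5 fell, Myh7 was under the threshold on all 6 arrays although called higher, and 5 were not called.

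Among the largest falls of genes in no list were those of Col9a1, a collagen of cartilage and vitreous (at least 51.0-fold), Mab21l1, a gene of eye development (at least 49.1-fold), and Hmx1, a homeobox gene of the eye and ear (at least 38.3-fold). Vxn, a regulator of retinal neurogenesis, fell in signal from 3963, 3894 and 3679 to 35.3, 69.0 and 61.7, and Hook1, which binds microtubules, fell by 4.68 on log2. Among rises of genes in no list, A2m, a protease inhibitor, went in signal from 598, 722 and 697 to 15442, 13736 and 13836 (log2 fold change 4.42 ± 0.15, adjusted p = 1.5e-08). Hspb1, a small heat shock protein, was at least 54.6-fold higher, Scn7a, a sodium channel of glia, at least 29.5-fold, and Fgl2, a fibrinogen-like protein, rose by 5.29 on log2. Ntrk2, a neurotrophin receptor with neuronal and glial forms, rose by 4.88 on log2 on the probe set used, and its 3 other probe sets ranged from 0.52 to 5.68.

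The 3 rESC-RPC1 arrays differed from each other along the same lists. Of 15 mesenchyme genes, 13 were highest in replicate 3 and 14 lowest in replicate 2, and the mean log2 signal of the list differed by 1.56 between these arrays. The difference was 0.91 for YAP and serum response targets, 0.88 for fibrillar collagens, 0.76 for the stress response list and 0.54 for basement membrane. In the other direction, replicate 2 was highest for 18 of 26 astrocyte genes and replicate 3 lowest for 17 (-0.76 for replicate 3 minus replicate 2). The same difference was -1.06 for forebrain factors, -0.98 for Muller glia genes and -0.70 for eye field genes. Over all tested genes and over interferon genes the same difference was 0.0 on log2. Single genes show the range. Tagln, a smooth muscle actin-binding protein, had signals of 2721, 1528 and 7731, and Rax, as given above, went the other way. Even on the rESC-RPC1 array with its lowest value, each of Tagln, Col5a2 and Ccn2 was above all P-RPC arrays.

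**Figure D5:**
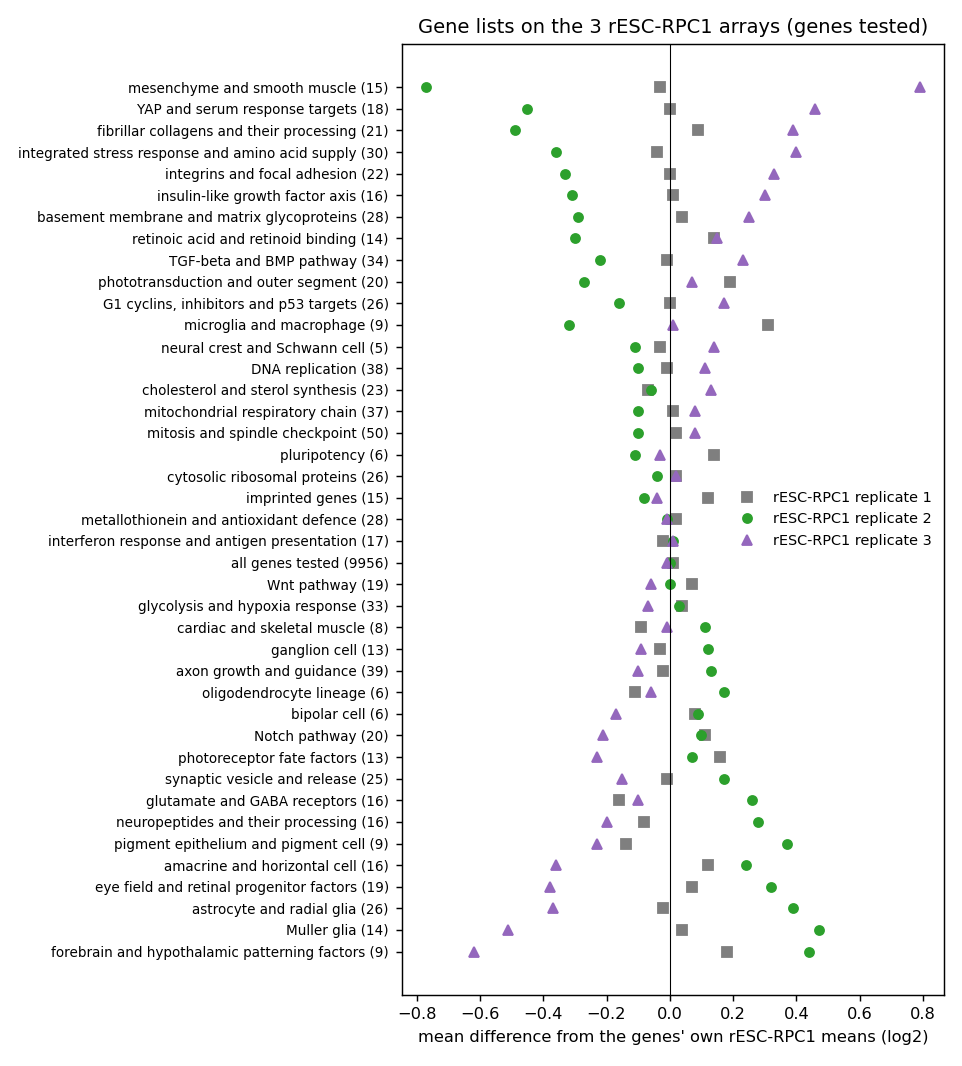
Mean difference of each rESC-RPC1 array from the 3-array mean (log2, x axis) over the tested members of each list, with the number of members in parentheses. Replicate 3 is highest and replicate 2 lowest for mesenchyme, YAP and serum response and collagen genes, and the order turns for forebrain, Muller glia, astrocyte and eye field genes.

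Between rESC-RPC1 and rESC-RPC2, 921 genes were called higher and 500 lower in rESC-RPC1 (14.3% of those tested), and both comparisons use the same rESC-RPC1 arrays. A2m had signals of 826, 1206 and 766 in rESC-RPC2 and was higher in rESC-RPC1 by 3.97 ± 0.15, and B2m (2439, 2280.4 and 2379) by 1.88 ± 0.07 on log2. Of the 21 tested collagen genes 17 were called higher than in rESC-RPC2 and 4 were not called, with Col3a1 at 131, 177 and 164 in rESC-RPC2 and 5229, 3756 and 3746 in rESC-RPC1. Most of the 18 YAP and serum response targets were not called between the rESC-RPCs (2 higher, 1 lower and 15 not called), and Ccn1, with signals of 5363, 3705 and 4455 in rESC-RPC2, was lower in rESC-RPC1 (log2 difference -1.84 ± 0.43). Of the 15 mesenchyme genes 5 were higher, 1 lower and 9 not called. Dct was detected on 1 of 3 rESC-RPC2 arrays (109.9, 125 and 92.1). For Six6, rESC-RPC2 had signals of 1517, 1625 and 1145 and rESC-RPC1 was lower by 1.56 ± 0.20 on log2. Pax6, on the probe set used, was under the threshold on every rESC-RPC2 array. Nkx2-1, with signals of 1805, 2199.7 and 2237 in rESC-RPC2, was not called between the rESC-RPCs (log2 difference 0.58 ± 0.18). Time of adherence and medium changed together between these kinds of rESC-RPCs and cannot be told apart.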

How the data were processed

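Expression was measured on 9 Affymetrix rat arrays, 1 for each sample, which the sample titles place in 3 groups of 3. What was deposited is linear intensities, 1 MAS 5.0 signal per probe set, which the authors made by removing background and normalizing in GeneSpring. The MAS5 version and any batch or scan date are not given in the sources used here. The mean of each array after trimming 2% from each end was 500.2, so a change in total RNA per cell would not be seen. The number of arrays limits the precision, and low signals limit the folds.

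Signals were floored at 1 before the log2 step. After 57 control probe sets were left out, 20826 of 31042 carried 1 gene symbol, 436 several and 9780 none, by the platform table. Those with several or none were not used. The Entrez ID of 20758 was found in the RefSeq table, with 0 symbols to update. The detection threshold was the median of all values (122.6), and genes with at least 3 of 9 arrays at or above it were tested (each on its brightest probe set by mean over arrays, since 2363 genes had several). Groups were fitted as 1 mean each over all 9 arrays in R 4.3.3 (limma 3.58.1: lmFit, then eBayes with trend), with Benjamini-Hochberg adjustment over 9956 genes, an adjusted p under 0.05 and a fold of at least 2. The fit was tested on simulated data. Leave-one-out fits kept the same tested genes. Alternatives were other scalings, filters, floors, offsets, probe set rules, samples and tests.

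The samples, gene lists and tests were chosen with earlier results of these data known, so no list is independent evidence. Besides Prkca, 254 tested genes are named, of which 177 follow a rule and 77 were chosen after their values were seen. The rule took large changes without overlap between groups, and the called members of each list with the smallest adjusted p. It also took members not called with the highest mean signal, genes that the paper names for these cells, and examples at the fold limit. Members named as not called were often chosen to show the spread of a list. The replicate numbers were treated as unpaired, since the deviations of same-numbered arrays had r of 0.019, 0.063 and 0.066. Promoter sequences are those of the RefSeq table for GRCr8.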

Additional observations from a re-analysis of the deposited data

How the results depend on the processing

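Of 2144 genes called (1192 higher and 952 lower), 2071, 2029 and 2060 kept their call without P-RPC replicate 1, 2 or 3 and 2042, 2043 and 1957 without rESC-RPC1 replicate 1, 2 or 3, and 1781 kept it in all 6 of these fits. The totals without 1 array ranged from 2074 to 2275, with 1164 to 1267 higher and 904 to 1008 lower. The count changed by more than 1.5 times under 3 settings, by their construction. With the filter at the 75th percentile (a signal of 571) 1235 genes were called (683 higher and 552 lower), with a fold of at least 4 there were 816 (482 and 334), and counting probe sets in place of genes gave 3732 (1925 and 1807). With no filter 2681 genes were called, with values raised to the detection threshold 1816, with log2(signal + 32) 1910, with quantile normalization 2165, with median centring 2148, in a fit on the 6 arrays alone 2145, and by the methods' t-test 2094 at an unadjusted and 2005 at an adjusted p under 0.05. A replicate block, which pairs arrays by their number, gave 2148 genes and kept all 2144 calls.

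Of the 254 tested genes named besides Prkca, 36 crossed the limits of the call under at least 1 of 18 alternatives. None of the 4512 values of these 254 genes changed the direction of a call. Without rESC-RPC1 replicate 3, Cdkn1b (log2 fold change -0.98), Irf9 (0.88) and Klf5 (0.94) were not called, while Gja1 (1.03) and Sox2 (1.04) were. Without rESC-RPC1 replicate 2, Fez1 (0.81), Lhfpl3 (0.92) and Lgals3bp (adjusted p = 0.055) were not called, while Plod2 (1.15), S100a4 (1.17) and Trim25 (1.30) were. Without rESC-RPC1 replicate 1, Fez1 (0.96), Klf5 (0.97) and Lgals3bp (adjusted p = 0.058) were not called, while Notch1 (-1.03) and Trim25 (1.01) were. Without P-RPC replicate 1, Irf9 (0.95) was not called. Without P-RPC replicate 2, Fez1 (0.97), Hif1a (-0.98) and Bmp4 (adjusted p = 0.063) were not called and Trim25 (1.01) was. Without P-RPC replicate 3, Irf9 (0.95), Lhfpl3 (0.98) and Lgals3bp (adjusted p = 0.074) were not called and Trim25 (1.03) was. With the mean of all probe sets of a gene, Cdkn2c (-0.50), Igf1r (-0.93), Robo2 (-0.94) and Thrb (-0.94) were not called, while Cngb1 (log2 fold change -2.996) and Mbp (-1.18) were. The methods' t-test with Benjamini-Hochberg adjustment did not call Aldh1a3, Bmp4, Ccnd2, Crybb3, Dct, Ets1, Fabp7, H19, Lhfpl3, Npy, Syn2 and Tfap2a (adjusted p from 0.0502 for Aldh1a3 to 0.17 for Bmp4), and at an unadjusted p it did not call Bmp4, Dct and Fabp7. With log2(signal + 32), Fez1, Irf9, Klf5, Lhfpl3 and Myh7 (0.90 to 0.99) were not called. Trim25 was called with quantile normalization (1.03) and median centring (1.03). Other losses of Bmp4, and those of Dct, Otx2 and Thrb, without 1 array stand beside their values above.

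Signals near or under the threshold carry the folds least well. The fall of Bmp4, Crx, Pou4f1 and Tyr and the rise of Lgals3bp, Myh7, Prkca, Rig1 and Syn2 were not called with values raised to the detection threshold. Strain, culture, serum, medium and tissue differ between the groups on every array, and no setting separates them.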
